A study of Homo sapiens with 6 samples.

Results

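The 10 genes described here encode the retinoblastoma pocket proteins (RB1, RBL1 and RBL2), the D-type cyclins (CCND1, CCND2 and CCND3), the kinases that these cyclins switch on (CDK4 and CDK6), and the inhibitors p21 and p27 (CDKN1A and CDKN1B). They were taken by gene name from the 45019 rows of each deposited table, and all 10 had a row. Of the 10 genes, 9 had a mean of at least 10 normalized reads and were tested, and CCND2 was listed at 0 in every library. The cells were MDA-MB-468, an established triple-negative, basal-like breast cancer line that is known for loss of RB1. One group was kept for 10 days in 100 µM DETA/NO, a slow nitric oxide donor. The other group was untreated. Per the labels, treated cells were harvested every 48 h, kept within their own replicate, replated at a fixed density and dosed again once attached after 4 h. Both groups grew in the same serum-containing medium. The question put by the submitters was whether chronic nitric oxide goes with changes in transcription. Total RNA was sequenced.

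There were 3 samples per group by label. DETA/NO replicates 1 and 2 had identical values in every row, under a header naming the same library, and counted as 1 library. The comparison was therefore between n = 2 DETA/NO libraries, called library 1 and 2 and library 3, and n = 3 untreated libraries. Separate starting cultures are not stated in the labels, so that the spread among these libraries, on which p-values rest, may be technical. The libraries held 28897422 and 34210950 recovered reads with DETA/NO, against 32872785 to 34637343 in untreated cells. The line markers EGFR, KRT5, KRT8, KRT18 and EPCAM were abundant in every library, with EPCAM at 13708 and 13388 normalized reads in DETA/NO libraries and 12806 to 13135 in untreated ones. Of the 10 epithelial and line markers, 5 were called higher, among them VIM (log2 fold change 0.68), KRT5 (0.24, adjusted p = 0.0559 in limma without DETA/NO library 3) and EGFR (0.15, not called with quantile normalization), and ERBB2 was lower (-0.35). Markers of other cell types were summed by list. The summed level of 7 fibroblast genes was 840 to 850 with DETA/NO and 578 to 635 without, nearly all of it COL1A1, with THY1 at 0. The sum of 6 immune genes was 429 to 493 with DETA/NO and 923 to 977 without, nearly all of it CD14, with 1 of the 6 at 0 in every library. CD14 had 390 and 456 normalized reads with DETA/NO, against 909, 963 and 945 in untreated cells, while PTPRC had 34.3 and 33.2 with DETA/NO, against 14.3, 8.83 and 16.6, and was called higher. The sum of 6 endothelial genes was 523 to 577 with DETA/NO and 333 to 368 without, with none at 0 throughout. Of 5 endothelial genes tested, 3 were called higher, against 21.7% of all tested genes. These were CDH5 (log2 fold change 1.20), KDR (0.55) and TEK (1.75, at 23.3 and 19.0 normalized reads with DETA/NO), while PECAM1 and VWF were not called. The part of these markers in the results below was not tested. In bulk RNA, fewer cells of a kind and less RNA per cell cannot be told apart.

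In the textbook scheme, RB1 and its relatives RBL1 (p107) and RBL2 (p130) hold E2F transcription factors in check during G1. Cyclin D with CDK4 or CDK6, followed by cyclin E with CDK2, phosphorylates the pocket proteins, which releases E2F and lets genes of DNA replication be transcribed. CDKN1A and CDKN1B inhibit the cyclin-dependent kinases, and INK4 proteins such as CDKN2A block CDK4 and CDK6 alone. Cells that lack RB1 no longer need cyclin D to enter S phase, and RBL1 and RBL2 are the pocket proteins that remain to them.

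The promoters of 3 of these genes are printed because they are those of the gene with the largest rise (CDKN1A), of the abundant pocket protein gene that was lower (RBL2), and of the pocket protein gene that is a textbook E2F target (RBL1). The table of RefSeq promoters, 250 bases before to 50 bases after each start (build GRCh38.p14), matched 8 of the 10 genes. CCND1 and CCND2 were not matched. The RefSeq starts of CDKN1A, RBL2 and RBL1 lie 2254, 494 and 2 bases from the 5′ ends of their GENCODE spans. Each sequence runs 5′ to 3′ on the gene's own strand, and bases are counted from the start, with 1 as its first base and -1 as the base before it.
CDKN1A, chr6:36678464-36678763, plus strand: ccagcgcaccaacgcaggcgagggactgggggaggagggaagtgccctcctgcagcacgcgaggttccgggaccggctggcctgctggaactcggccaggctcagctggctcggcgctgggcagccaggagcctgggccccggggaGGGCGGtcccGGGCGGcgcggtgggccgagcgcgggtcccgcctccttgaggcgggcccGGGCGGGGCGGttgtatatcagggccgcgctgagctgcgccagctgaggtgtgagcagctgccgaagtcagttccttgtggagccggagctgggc
RBL2, chr16:53434221-53434520, plus strand: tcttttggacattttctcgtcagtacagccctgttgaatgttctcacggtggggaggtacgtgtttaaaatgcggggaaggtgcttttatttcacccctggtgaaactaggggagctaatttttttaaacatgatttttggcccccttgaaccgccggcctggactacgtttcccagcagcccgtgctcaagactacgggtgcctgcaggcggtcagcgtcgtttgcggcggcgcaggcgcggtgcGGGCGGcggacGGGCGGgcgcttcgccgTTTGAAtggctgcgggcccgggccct
RBL1, chr20:37095948-37096247, minus strand: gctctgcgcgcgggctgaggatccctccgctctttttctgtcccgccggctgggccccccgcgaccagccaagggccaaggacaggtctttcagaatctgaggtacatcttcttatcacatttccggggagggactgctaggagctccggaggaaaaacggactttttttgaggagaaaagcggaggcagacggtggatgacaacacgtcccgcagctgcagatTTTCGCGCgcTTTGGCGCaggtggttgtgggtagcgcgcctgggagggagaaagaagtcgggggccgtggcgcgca
Capitals mark GC boxes (GGGCGG on either strand) in CDKN1A, GC boxes and a motif TTTGAA in RBL2, and E2F motifs in RBL1. GC boxes are bound by SP1 and related factors. CDKN1A held 4 of them, starting at -104, -94, -45 and -40, where the last pair overlap by 1 base. RBL2 held 2, starting at -4 and 8, and its TTTGAA, a form of the cell cycle homology region (TTTGAA or TTCGAA searched), began at 25. The E2F search used TTTCGCGC, TTTGGCGC, TTTCCCGC and TTTGCCGC on both strands. RBL1 held 2 matches, at -26 to -19 and at -16 to -9, and none was found in the windows of the other matched members. The RB1 entry lies 172724 bases from the 5′ end of its GENCODE span, at an internal start, so the promoter at the 5′ end of RB1 was not searched. Over all 35116 promoters in the table, 45.0% held a GC box, 16.4% the cell cycle homology region and 3.31% an E2F motif. A match describes letters in the window and is no evidence of binding.

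Levels were compared between genes per kilobase of free exon. Free exon means exon bases of GENCODE release 29 (GRCh38) outside the span of every other listed gene. Whether reads in introns were counted is not given. Of 621 genes lying whole under other genes without a shared exon base, 619 were listed at 0. Counting over whole spans would give such zeros. Levels, shares and ratios per kb between genes would then also depend on intron reads, which was not tested. CCND1 was the most abundant of the set, at 2497 ± 20.96 normalized reads per kb with DETA/NO (SD, n = 2) and 2070 ± 36.9 in untreated cells (SD, n = 3). RB1 was the least abundant of the 9 genes with reads, at 12.01 ± 2.20 per kb with DETA/NO and 16.2 ± 1.11 per kb in untreated cells. Between them in untreated cells came RBL2 at 708 per kb, CDKN1B at 553, CDK4 at 471, CDKN1A at 432, CDK6 at 296, RBL1 at 284 and CCND3 at 207. In DETA/NO libraries the order was CCND1, then CDKN1A at 688 per kb, RBL2 at 624, CDKN1B at 518, CDK4 at 495, CDK6 at 305, RBL1 at 299 and CCND3 at 232. CDKN1A was thus in the second place with DETA/NO and in the fifth place without. In untreated cells the libraries of CDK4 and CDKN1A overlapped, and so did those of CDK6 and RBL1. With DETA/NO the overlap was between CDK6 and RBL1 alone. Places in this order depend on the length used. TSPAN31 and MIR6759 overlap CDK4, and 43.2% of its exon bases are shared with exons of other genes on either strand. Over full exon length CDK4 was at 281 per kb with DETA/NO and 268 per kb in untreated cells. CDKN1A was then at 411 per kb in untreated cells, above CDK4. With DETA/NO, RBL2 was then at 510 per kb, below CDKN1B at 518.

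**Figure D1:**
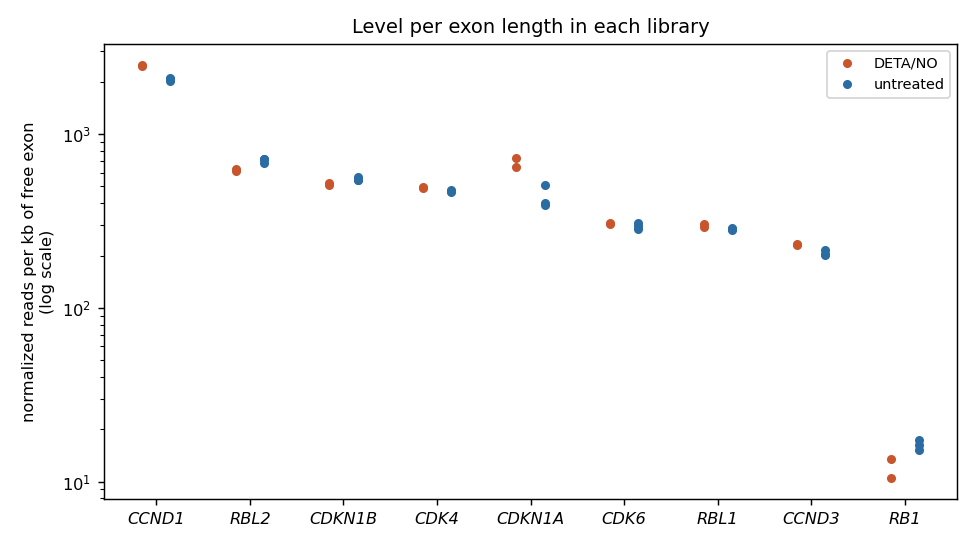
Normalized reads per kb of free exon (log axis) for the 9 genes with reads, in the 2 DETA/NO libraries (orange) and the 3 untreated libraries (blue). Each point is 1 library. CCND1 is the highest gene, at group means of 2497 and 2070 per kb, and RB1 the lowest, at 12.01 and 16.2 per kb.

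RB1, the pocket protein gene the line is known to lack, was at a low level in both groups. RB1 (ENSG00000139687.15, chromosome 13, 48303726 to 48599436, plus strand, GRCh38) had 87.5 and 67.4 normalized reads with DETA/NO, against 97.5, 105 and 112 in untreated cells. Both DETA/NO libraries lay below all 3 untreated libraries. These values rest on 79 and 71 recovered reads with DETA/NO and 102, 107 and 121 without. The exact Poisson 95% intervals, which cover counting error only, were 69.3 to 109 and 52.7 to 85.0 normalized reads with DETA/NO, against 79.5 to 118, 86.0 to 127 and 92.8 to 134 in untreated cells. The interval of library 1 and 2 overlaps those of all 3 untreated libraries, and that of DETA/NO library 3 overlaps that of untreated library 1. RB1 fell by 0.44 on the log2(value + 1) scale (SE 0.156, 95% interval -0.76 to -0.12, adjusted p = 0.0218, limma with Benjamini-Hochberg adjustment over 16409 genes). The call rested on single libraries. Its log2 fold change was -0.25 (adjusted p = 0.302) when DETA/NO library 3 was left out. When untreated library 2 was left out it was -0.44 with an adjusted p of 0.0525, and for untreated library 3 it was -0.39 with 0.0615. Leaving out library 1 and 2 gave -0.63 with 0.00811. DESeq2 on the recovered reads gave an adjusted p of 0.124, and limma without its trend and robust options 0.0722.

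The genes around RB1 were read as a description of the locus. Of 12 protein-coding genes outside RB1 and within 1 Mb of it, 10 had a mean of at least 10 normalized reads, and their means ran from 286 for CDADC1 to 2768 for ITM2B. ITM2B, a membrane protein gene that ends 33.4 kb before RB1 starts, had 244 normalized reads per kb with DETA/NO and 268 per kb in untreated cells, against the 12.01 and 16.2 per kb of RB1 in the same groups. Further before RB1, levels were again above its own, with MED4, a subunit of the Mediator complex, at 257 and 259 per kb and SUCLA2, a subunit of a mitochondrial succinyl-CoA ligase, at 71.0 and 82.0 per kb in DETA/NO and untreated cells. After RB1 came CYSLTR2, a leukotriene receptor 54.3 kb away, with 5.54 and 12.3 normalized reads in DETA/NO libraries and 5.89 to 9.24 in untreated ones. FNDC3A, 376 kb after the end of RB1, was at 338 and 354 per kb. Of these 10 genes 5 were lower and 1 was higher with DETA/NO, against 21.7% lower and 21.7% higher among all 16409 genes tested. CAB39L, a homologue of the LKB1 scaffold gene CAB39, fell by 0.65 on the log2 scale (adjusted p = 4.37e-09), and SETDB2 fell by 0.27, RCBTB1 by 0.18, SUCLA2 by 0.21 and ITM2B by 0.14. PHF11 rose by 0.14. Without library 1 and 2, SUCLA2 had an adjusted p of 0.152 and PHF11 of 0.232. RCBTB1 had 0.0570 without DETA/NO library 3, and PHF11 had 0.0622 without untreated library 1. CYSLTR2 and MLNR were under the filter. MED4, FNDC3A and CDADC1 did not pass, with log2 fold changes between -0.18 and -0.01.

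**Figure D2:**
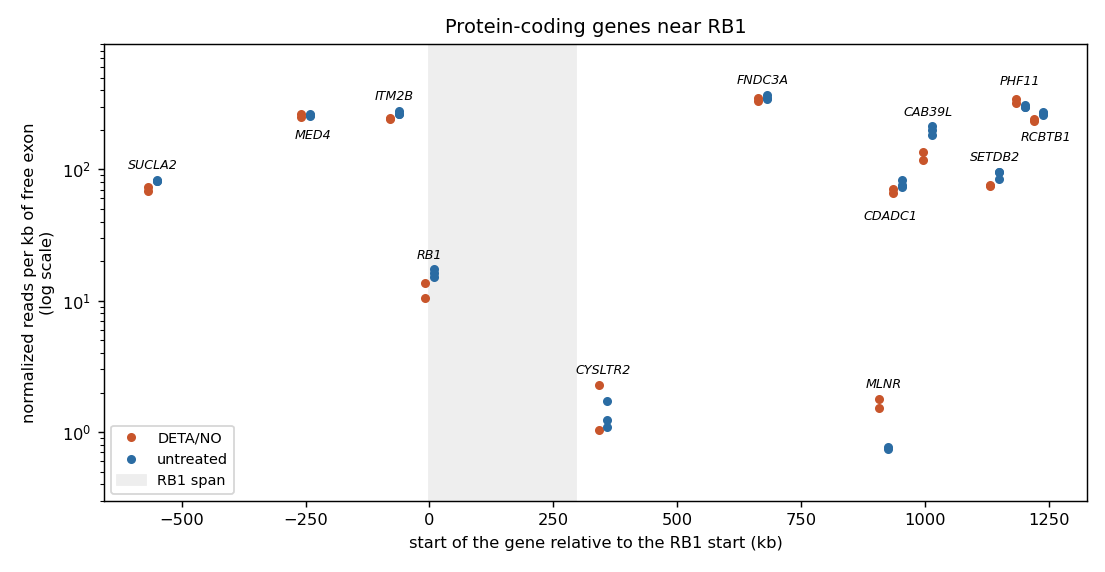
Normalized reads per kb of free exon (log axis) for the protein-coding genes near RB1 that are shown, by the distance of the gene's start from the RB1 start in kb. Orange points are the 2 DETA/NO libraries, blue points the 3 untreated libraries, and the grey band is the RB1 span. A library at 0, which occurs once, for MLNR, is not drawn. RB1 has group means of 12.01 and 16.2 per kb, while ITM2B before it has 244 and 268 per kb.

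LPAR6, a lysophosphatidic acid receptor, and RCBTB2 lie whole inside the RB1 span on the opposite strand, sharing no exon base with it, and both were listed at 0 in every library. That 0 could not be read as absence. Among 1701 protein-coding genes whose whole span lies under other listed genes, 1683 (98.9%) were listed at 0 in every library, against 1064 of 8043 genes (13.2%) with no such overlap. Where no exon base was shared with another exon the figure was 619 of 621 genes (99.7%). CCND2 (ENSG00000118971.7, chromosome 12, 4273772 to 4305350) has 100% of its span under AC008012.1 and CCND2-AS1, and CDKN2A and CDKN2B have 100% of theirs under CDKN2B-AS1 and AL359922.1. All 3 were listed at 0 in every library, so no level of cyclin D2, of p16 or of p15 mRNA could be read from these files.

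RBL2 was lower with DETA/NO while RBL1 did not pass the test. RBL2 (ENSG00000103479.15, chromosome 16, 53433977 to 53491649), the pocket protein of resting cells, had 3677 and 3796 normalized reads with DETA/NO, against 4326, 4320 and 4076 in untreated cells. Both DETA/NO libraries lay below every untreated library. RBL2 fell by 0.18 on the log2 scale (SE 0.0362, limma adjusted p = 0.000115), a level 11.9% lower. Its adjusted p stayed at or under 0.00511 whichever library was left out, and it was 0.0522 in limma without the trend and robust options. RBL1 (ENSG00000080839.11, chromosome 20, 36996349 to 37095995), which is made mainly in cycling cells, had 1756 and 1679 normalized reads with DETA/NO, against 1628, 1649 and 1615 in untreated cells. The libraries did not overlap, but the log2 fold change of 0.07 had a 95% interval of -0.02 to 0.17 (adjusted p = 0.182). The ratio of RBL2 to RBL1 per kb was 2.01 and 2.17 in DETA/NO libraries, against 2.55, 2.51 and 2.42 in untreated libraries, and the groups did not overlap. On the log2 scale the difference was -0.26, with an exact two-sided permutation p of 0.2, the smallest that the 10 arrangements of 2 against 3 libraries allow (0.333 after Benjamini-Hochberg adjustment over 5 ratios). Per kb, RB1 made up 1.45% and 1.12% of the summed pocket protein level with DETA/NO and 1.48% to 1.77% without. RBL2 held 65.8% and 67.7% of it with DETA/NO and 69.5% to 70.8% without.

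Both cyclin D genes with reads were higher with DETA/NO. CCND1 (ENSG00000110092.3, chromosome 11, 69641087 to 69654474), which encodes cyclin D1, had 8518 and 8619 normalized reads with DETA/NO, against 6960, 7154 and 7197 in untreated cells. The gap between the groups was larger than the range within either of them. CCND1 rose by 0.27 on the log2 scale (SE 0.0310, 95% interval 0.21 to 0.33, limma adjusted p = 1.39e-08), which is 20.6% higher, and it passed under all 17 alternatives. CCND3 (ENSG00000112576.12, chromosome 6, 41934933 to 42050357), the gene of cyclin D3, had 1321 and 1309 normalized reads with DETA/NO, against 1144, 1154 and 1215 in untreated cells. Both DETA/NO libraries were above every untreated one, and CCND3 rose by 0.17 (SE 0.0502, adjusted p = 0.00713). Its adjusted p was up to 0.0489 when a library was left out and 0.0555 in limma without the trend and robust options. Cyclin D1 held 91.4% and 91.6% of the summed level of both genes per kb with DETA/NO, against 90.9%, 91.1% and 90.7% without. The log2 ratio of CCND1 to CCND3 was 0.10 higher with DETA/NO, with groups that did not overlap (exact two-sided permutation p = 0.2, 0.333 adjusted).

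The kinase genes did not pass the test. CDK4 (ENSG00000135446.16, chromosome 12, 57747727 to 57756013) had 882 and 898 normalized reads with DETA/NO, against 842, 861 and 839 in untreated cells, so both DETA/NO libraries were slightly above the rest. Its log2 fold change was 0.07 (95% interval -0.04 to 0.19, adjusted p = 0.334). CDK6 (ENSG00000105810.9, chromosome 7, 92604921 to 92836594) had 3722 and 3682 normalized reads with DETA/NO, against 3578, 3761 and 3466 in untreated cells, and the groups overlapped. Its log2 fold change was 0.04 (95% interval -0.04 to 0.12, adjusted p = 0.410). For both kinases a rise above 0.19 on the log2 scale lay outside the 95% interval. The log2 ratio of CDK6 to CDK4 differed by -0.03 between the groups, with an exact two-sided permutation p of 0.4.

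CDKN1A had the largest rise of the set. CDKN1A (ENSG00000124762.13, chromosome 6, 36676460 to 36687339) had 1887 and 2108 normalized reads with DETA/NO, against 1159, 1132 and 1471 in untreated cells. No untreated library reached the DETA/NO ones, and untreated library 3 came nearest. CDKN1A rose by 0.68 on the log2 scale (SE 0.156, 95% interval 0.22 to 1.14, limma adjusted p = 0.0402), which is 60.1% higher. The rise itself was 0.60 to 0.80 whichever library was left out, but its adjusted p was 0.126 without library 1 and 2 and 0.168 without DETA/NO library 3. Leaving out untreated libraries 1, 2 or 3 gave 0.0854, 0.0634 and 2.70e-32. The variance in limma draws on other genes too, so the last value does not measure the spread of CDKN1A among the remaining libraries. edgeR on the recovered reads gave an adjusted p of 1.08e-07 and DESeq2 0.000438. CDKN1B (ENSG00000111276.10, chromosome 12, 12715058 to 12722371) had 1433 and 1478 normalized reads with DETA/NO, against 1525, 1601 and 1536 in untreated cells. Its libraries did not overlap either, and the log2 fold change was -0.09 (95% interval -0.19 to -0.00028, adjusted p = 0.0998). The ratio of CDKN1A to CDKN1B per kb was 1.27 and 1.381 in DETA/NO libraries, against 0.736, 0.685 and 0.927 in untreated libraries. CDKN1A was thus the more abundant of the pair in both DETA/NO libraries and the less abundant in all 3 untreated libraries. The difference in the log2 ratio was 0.77, with an exact two-sided permutation p of 0.2 (0.333 adjusted).

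**Figure D3:**
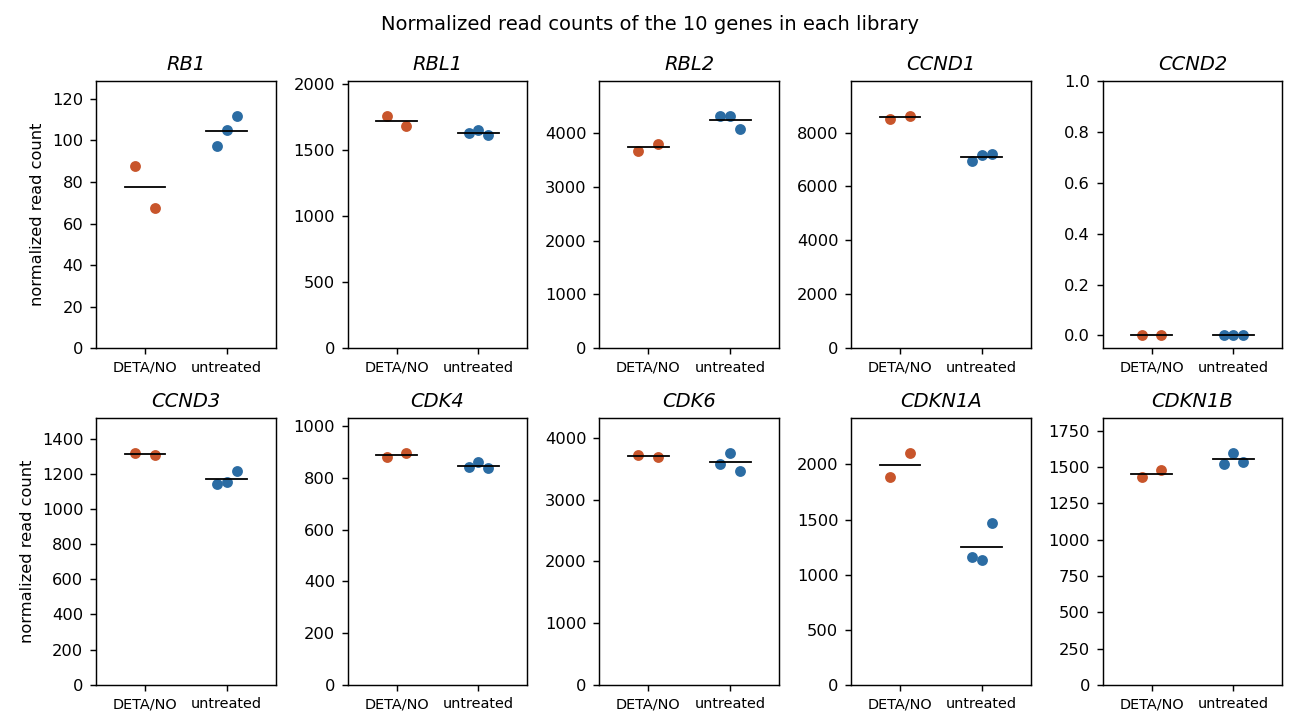
Normalized read counts of the 10 genes, 1 panel per gene with its own axis from 0, in the 2 DETA/NO libraries (orange, left) and the 3 untreated libraries (blue, right). Points are libraries and black lines group means. CDKN1A, CCND1 and CCND3 are higher in both DETA/NO libraries than in any untreated library, RB1 and RBL2 are lower, and CCND2 is at 0 throughout.

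Of the 9 tested genes, 3 were called higher and 2 lower. Over all 16409 genes tested, 43.4% were called, 21.7% higher and 21.7% lower, so that 5 calls among 9 genes lay near that background. The groups did not overlap in 8 of the 9 genes, with DETA/NO higher in 5 and lower in 3, against 61.2% of all tested genes, 30.4% with DETA/NO higher and 30.8% with DETA/NO lower. The absolute log2 fold change of CDKN1A exceeded that of 90.6% of tested genes and that of RB1 81.0%, while CCND1 exceeded 65.0% and RBL2 50.4%. Leaving out library 1 and 2, DETA/NO library 3, untreated library 1 or untreated library 2 left 2 genes called higher. Leaving out DETA/NO library 3, untreated library 2 or untreated library 3 left 1 gene called lower.

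**Figure D4:**
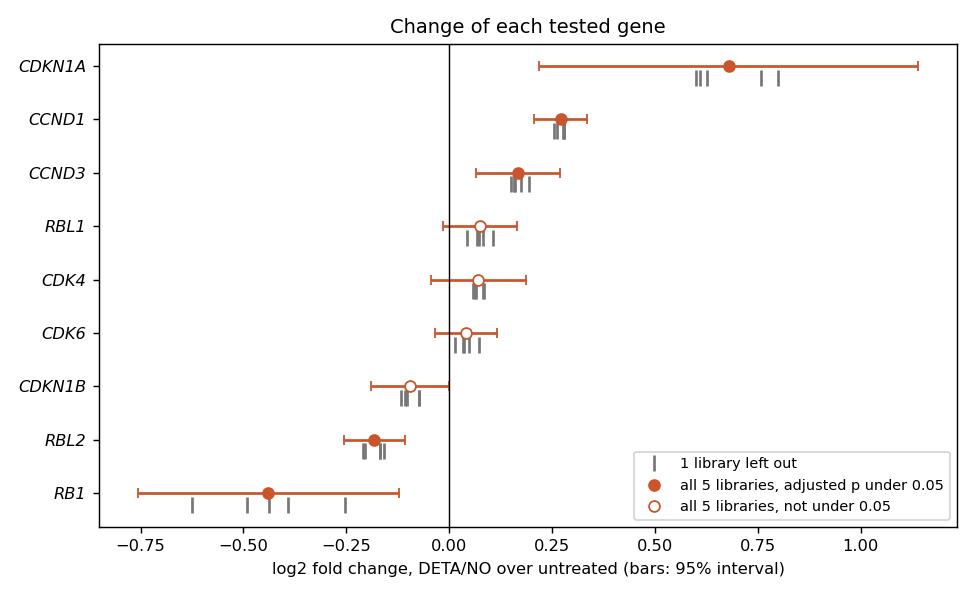
Log2 fold change (DETA/NO over untreated) of the 9 tested genes with 95% intervals, filled where the limma adjusted p was under 0.05. Grey ticks are the same value with 1 of the 5 libraries left out. Every tick of a gene lies on the same side of 0 as its main value. The ticks of RB1 spread from -0.63 to -0.25 and those of CDKN1A from 0.60 to 0.80.

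Genes whose profile over the 5 libraries was most like that of CDKN1A were PRICKLE2, KRT16 and KLK10, by Euclidean distance of log2 values centred on the untreated mean (0.114, 0.138 and 0.148) among 11532 genes with a mean of at least 100. KRT16, a keratin of stressed epithelium, had 3418 and 3558 normalized reads with DETA/NO, against 2020, 2071 and 2403 in untreated cells. The nearest profiles to that of RB1 were those of FOXO4, LAMTOR2 and MMP7 (0.120, 0.128 and 0.134).

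Genes around the members followed no single direction. The background for the counts of every list below is 21.7% called higher and 21.7% lower over all tested genes. Among other CDK inhibitors, 1 of 4 tested genes was higher and 2 were lower, with a median log2 fold change of -0.21, against -0.00016 over all tested genes. CDKN2C, the INK4 inhibitor p18, had 968 and 954 normalized reads with DETA/NO, against 1305, 1402 and 1290 in untreated cells, and fell by 0.47 on the log2 scale (adjusted p = 7.31e-09). CDKN1C, the CIP/KIP inhibitor p57, was at a low level, with 24.4 and 31.3 against 52.6, 40.2 and 56.4, and fell by 0.81 (adjusted p = 0.00436). Without library 1 and 2 its adjusted p was 0.0661, and 1 of the list was then lower. CDKN3, a phosphatase that acts on CDK2, rose by 0.42. CDKN2D, the INK4 inhibitor p19, did not pass (log2 fold change 0.04, adjusted p = 0.574).

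Of 9 tested E2F and DP genes, 3 were higher and 1 lower (median 0.07). E2F4, the partner of RBL1 and RBL2 in repressor complexes, had 1286 and 1215 normalized reads with DETA/NO, against 959, 1033 and 1051 in untreated cells, and rose by 0.30. E2F3 rose by 0.18 and TFDP1, a DP partner of the E2F proteins, by 0.09. E2F7, an atypical repressor, fell by 0.18 (adjusted p = 0.0748 without library 1 and 2, where 0 were lower). E2F1 had 2170 and 2134 normalized reads with DETA/NO, against 2185, 2355 and 2403. Its log2 fold change was -0.10, with a limma adjusted p of 0.0500154, just past the threshold. That p was 0.0346 with TMM scaling, 0.0301 with total-read scaling and 0.0203 with quantile normalization. A pseudocount of 10 gave 0.0491 and a filter at a mean of 50 gave 0.0435. With the replicate number as a block and the shared library numbered 2 it was 0.0133. Apart from leaving out untreated library 1, the remaining alternatives, edgeR and DESeq2 among them, left E2F1 past the threshold. Without untreated library 1 its adjusted p was 0.0149, and 2 of the list were then higher and 3 lower. With quantile normalization the list counted 2 higher and 2 lower, and with TMM scaling or total-read scaling 3 and 2. E2F8 was listed at 0 although no other listed gene overlaps it. Of protein-coding genes with no such overlap, 1064 of 8043 were listed at 0. Why E2F8 was at 0 was not tested.

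Of the DREAM complex core and its partners, 3 of 6 tested genes were higher and 1 lower (median 0.14). The share over all tested genes was 21.7% each way. MYBL2, the B-MYB factor that RBL1 and RBL2 help to repress, had 8204 and 8040 normalized reads with DETA/NO, against 5847, 5858 and 5857 in untreated cells. It rose by 0.47 (adjusted p = 6.26e-14), LIN9, a MuvB subunit, by 0.26 and FOXM1, a factor of mitotic genes, by 0.19. RBBP4, the histone chaperone subunit, fell by 0.19. LIN37 was listed at 0 with its whole span overlapped.

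Among cyclin E, cyclin A, CDK2 and their regulators, 5 of 9 tested genes were higher and 1 lower (median 0.17). Without untreated library 2, 3 were higher. The share over all tested genes was 21.7% each way. CDK7, the CDK-activating kinase, rose by 0.20 and the phosphatase gene CDC25A by 0.18. WEE1, a kinase that inhibits CDK1 and CDK2, had 4711 and 5118 normalized reads with DETA/NO, against 7278, 7286 and 6979, and fell by 0.55 (adjusted p = 6.99e-14). CCNE1, cyclin E1, had 1033 and 917 normalized reads with DETA/NO, against 881, 878 and 890 (adjusted p = 0.0514, and 0.00999 without DETA/NO library 3 or 0.0416 without untreated library 3). CDK2 was listed at 0, again with its whole span overlapped.

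Parts of the ubiquitin ligases that act on these proteins were higher in 5 of 14 genes and lower in 1 (median 0.05). The share over all tested genes was 21.7% each way. UBE2S, an E2 enzyme of the anaphase-promoting complex, had 1675 and 1589 normalized reads with DETA/NO, against 988, 1007 and 1091, and rose by 0.67. CKS1B, the cofactor of SKP2 in the degradation of p27, rose by 0.30, while SKP2 itself had 2301 and 2347 against 2525, 2423 and 2387 (adjusted p = 0.148). FBXO4, a reported cyclin D1 ligase subunit, fell by 0.49. Without DETA/NO library 3 or untreated library 1, 3 of the list were higher, and 2 were lower without DETA/NO library 3 or untreated library 3 and with each of TMM scaling, total-read scaling and quantile normalization.

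E2F target genes of DNA replication split evenly, with 6 of 26 higher and 6 lower (median -0.02). CDC6 and CDT1, which license origins, rose by 0.21 and 0.19. MCM6, a subunit of the replicative helicase, fell by 0.41, and PCNA, the sliding clamp, had 11232 and 11483 normalized reads with DETA/NO, against 13125, 13393 and 13262, a log2 fold change of -0.22. Without library 1 and 2, 3 were higher. The split depends on the scaling, with 6 higher and 10 lower in total-read scaling and 5 and 9 with quantile normalization. The proliferation markers MKI67 and TOP2A had log2 fold changes of -0.11 (adjusted p = 0.00335) and -0.08 (adjusted p = 0.0395). TOP2A missed the threshold without DETA/NO library 3 (0.355), without untreated library 1 (0.164) or 2 (0.193), and in edgeR (0.0725).

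Of 21 genes that act on transcription of cyclin D or CIP/KIP genes, 9 were higher and 2 lower (median 0.06). The share over all tested genes was 21.7% each way. MDM2, a ubiquitin ligase gene, had 2192 and 2392 normalized reads with DETA/NO, against 2354, 2380 and 2441 in untreated cells (adjusted p = 0.242, and 0.0496 without DETA/NO library 3, with a log2 fold change of -0.13). Its log2 fold change was 0.00045 without library 1 and 2. KLF4, a factor that can activate CDKN1A, had 2255 and 2343 normalized reads with DETA/NO, against 1426, 1453 and 1478, and rose by 0.66 (adjusted p = 6.64e-14). ETS1 rose by 0.49. SP1 fell by 0.21, and FOXO4, of the FOXO family that activates CDKN1B, had 269 and 215 against 314, 356 and 350 and fell by 0.50. With TMM scaling or total-read scaling 9 were higher and 4 lower, and 5 were lower without DETA/NO library 3.

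Of 15 chromatin partners of pocket proteins, 3 were higher and 2 lower (median -0.0018). BRD2 rose by 0.20 and SMARCA2, a SWI/SNF ATPase, fell by 0.22. RBBP7 fell by 0.11, with an adjusted p of 0.0577 with the replicate block (shared library numbered 2) and 0.0933 in limma without the trend and robust options. KMT5C, a histone methyltransferase, rose by 0.18, with adjusted p of 0.215, 0.0602 and 0.173 without DETA/NO library 3 and untreated libraries 1 and 2. Without DETA/NO library 3 or untreated library 1, 1 of the list was higher, and the split was 2 and 3 with TMM scaling or quantile normalization and 2 and 4 in total-read scaling.

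**Figure D5:**
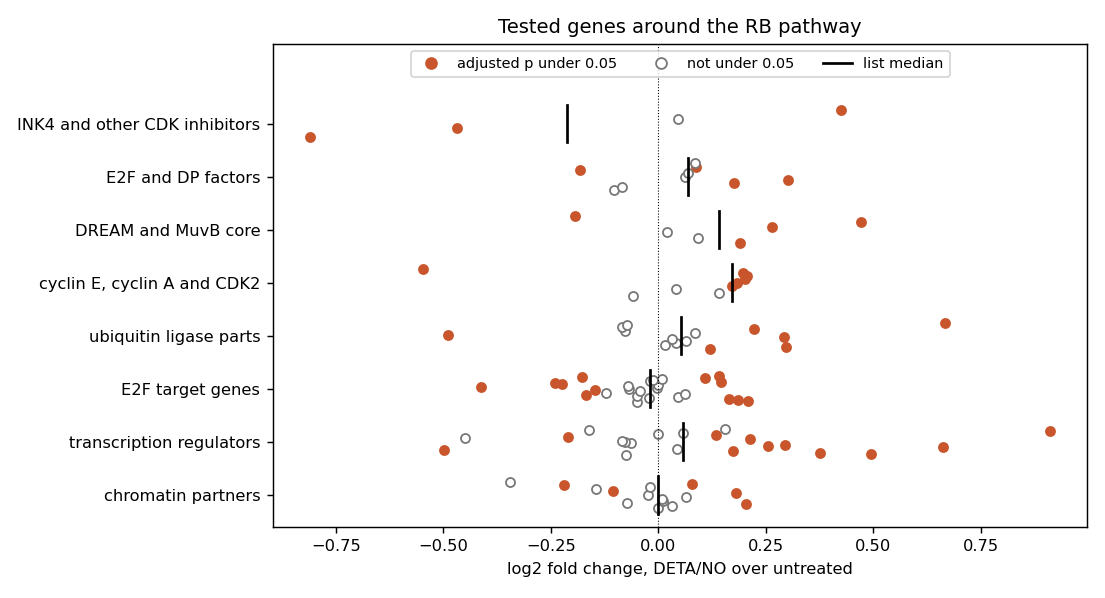
Log2 fold change (DETA/NO over untreated) of each tested gene in 8 lists of genes around the RB pathway. Each point is 1 gene, filled where the limma adjusted p was under 0.05, and the black line is the list median. The medians lie between -0.21 and 0.17, and every list has called genes on both sides of 0.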

How the data were processed

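The submitters' processing notes name TopHat2 2.1.1, Bowtie2 2.5.0.0, featureCounts 2.0.3, DESeq2 1.38.3, R 4.2.2 and the build GRCh38. Annotation, strand and counting options: not given in the sources used here. The authors deposited 1 normalized read count (signal) per gene. In each library 100% of values above 0 were whole reads times 1 factor (tolerance 0.01), and reads were recovered from it. Groups and replicate numbers came from the titles.

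Tests used limma (version 3.58.1, R version 4.3.3) with its trend and robust options, on log2(value + 1) over the 16409 genes whose mean reached 10, with calls at a Benjamini-Hochberg adjusted p under 0.05. A test on log values was used because the values are normalized. A fold change on this scale understates the change of low genes. edgeR 4.0.16 and DESeq2 1.42.0 on recovered reads were alternatives; edgeR called 7001 genes. The tests were checked on simulated counts with planted changes larger than those of most called members. The check therefore does not cover changes of that size. Lengths are from GENCODE release 29. Scripts used Python 3.11.15, pandas 2.3.3 and scipy 1.17.1. The members and lists were chosen with earlier results of these data known. Named by rule were the members, 6 fixed genes, up to 2 higher and 2 lower genes per list, the RB1 neighbours and 3 nearest profiles; other named genes were chosen after their values were seen. Some genes of these lists are not reported here. Of 27 row names turned into dates none is a member. The strand setting is not given, and 98.9% of genes lying whole under other genes were listed at 0. Reads where genes overlap (TSPAN31 at CDK4, LTO1 at CCND1) may therefore be missing from the counts.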

Additional observations from a re-analysis of the deposited data

How the results depend on the processing

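No tested member changed sign under the 17 alternatives, and CCND1, RBL1, CDK4, CDK6 and CDKN1B kept their side of the threshold in all of them. The count of members called lower was 0 in limma without trend and robust options, where RB1 (-0.44), RBL2 (-0.18) and CCND3 (0.17) missed the threshold at the same fold changes, 1 in DESeq2, where RB1 missed it at -0.44, and 1 to 2 when a library was left out. The cause was not tested. The count called higher was 2 to 3 when a library was left out, and then the log2 fold change of RB1 was -0.63 to -0.25 and that of CDKN1A 0.60 to 0.80 (0.76 without DETA/NO library 1 and 2; untreated library 1 gave RB1 -0.49). All genes called numbered 5579 to 7077 when a library was left out, 4759 in limma without trend and robust options and 5342 in DESeq2. When a DETA/NO library was left out, the lone one was assumed to vary like the untreated libraries. The median log2 fold change of all genes lay between -0.01 and 0.0018 under every alternative. Without trend and robust options, 2 E2F targets were higher and 5 lower, 0 chromatin partners were higher, and 3 genes each of the cyclin E and ubiquitin lists were higher. In DESeq2, 1 chromatin partner and 3 genes of the cyclin E list were higher. With the replicate number as a block, 3 members were higher and 2 lower, with the shared library numbered 1 or 2 (6605 and 6321 genes called in all). Among other named genes, the block numbered 1 ended the calls of KMT5C (adjusted p = 0.174) and TOP2A (0.196). Numbered 2, it ended those of PHF11 (0.0506), MKI67 (0.0538), RBBP7 (0.0577) and TOP2A (0.212) and brought E2F1 under the threshold (0.0133). Only 2 pairs can be formed, and their numbers are not stated to mark a shared day or culture. Correlations of deviations between same-numbered libraries were 0.0293 and 0.0301 with the shared library as 1. With the shared library as 2, its correlation with untreated library 2 was 0.00106. The headers of the shared library and of untreated library 2 both end in the letter B. RB1 is limited by depth, at 71 to 121 reads per library.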
